A study of Mus musculus with 12 samples.

Results

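Cell volume regulators are the proteins that a cell uses to take up or release salt and water when it swells or shrinks. The genes described here were 9: the kinase genes Stk39, Oxsr1 and Wnk1, the cotransporter genes Slc12a2, Slc12a4 and Slc12a7, and the channel subunit genes Lrrc8a, Lrrc8c and Lrrc8d. They were 9 of 19494 genes with a value, and each had 1 probe set. The set was chosen by the genotype values of Stk39, which was higher without NFAT5 in hematopoietic stem cells (HSC) and lower without it in multipotent progenitors (MPP). For that reason all genotype differences of the 9 genes are given as descriptions, with no test. The comparison of HSC with MPP over both genotypes did not enter that choice, and it was tested.

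The study measured gene expression in HSC and MPP that lacked NFAT5, a transcription factor that cells use to adapt to high salt. Its 12 arrays formed 4 groups of 3. Marrow called wild-type came from Nfat5 +/+ Vav-Cre donors and marrow called NFAT5-deficient from Nfat5 fl/fl Vav-Cre donors, so both genotypes carried Vav-Cre, which acts in blood cells. The marrow carried CD45.2 and went into irradiated wild-type CD45.1 recipients, whose own cells were not altered. At 13 weeks CD45.2+ cells were sorted from the LSK compartment (lineage-negative, Sca-1-positive, Kit-positive) as HSC (CD48-CD150+) or MPP (CD48+CD150-). The ages of the mice are not given in the sources used here. Arrays are named by sample number: wild-type samples are 66, 67 and 75, and NFAT5-deficient samples are 64, 70 and 76. Nothing in the labels says that the numbers are separate animals, so p-values measure the spread between these samples, which may be technical. In sorted bulk samples, fewer cells with a transcript and less of it per cell cannot be told apart.

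All values are log2 intensities, in which a difference of 1 is a doubling of signal. Levels of different probe sets cannot be ranked against each other. No detection calls were used, so 3 Y-linked genes (Eif2s3y, Kdm5d, Uty), with group means from 3.65 to 5.07, serve as a rough guide to background, called the background range here. The labels were checked on 4 genes. Nfat5 was 9.49 ± 0.29 in wild-type HSC and 8.24 ± 0.58 in HSC of the other genotype, and 8.58 ± 0.41 and 7.92 ± 0.42 in MPP (SD, n = 3). The HSC arrays of the genotypes did not overlap, but in MPP the array labelled NFAT5-deficient 76 read 8.40, above the array labelled wild-type 75 at 8.12. Whether the probe set covers the deleted part is not known here, and arrays are called by their labels throughout. Slamf1, which encodes CD150, had group means of 9.84 and 10.08 in HSC against 6.26 and 6.46 in MPP. Cd48 had 6.48 and 6.50 in HSC against 9.92 and 10.28 in MPP, and Kit lay between 11.16 and 11.43. Arrays of a group correlated across genes at 0.898 to 0.952.

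Salt transport across the plasma membrane sets cell volume, because water follows ions. WNK kinases respond to chloride and osmotic stress and activate the related kinases SPAK (encoded by Stk39) and OSR1 (encoded by Oxsr1). These phosphorylate cation-chloride cotransporters, which switches on salt uptake through NKCC1 (Slc12a2) and restrains salt release through the potassium-chloride cotransporters KCC1 (Slc12a4) and KCC4 (Slc12a7). In swollen cells, channels built from LRRC8 proteins let chloride and organic osmolytes out. LRRC8A is the subunit that every such channel needs, and LRRC8C and LRRC8D are partners that shape the pore.

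Stk39 had the widest range of the 9 genes. In HSC it read 6.67, 7.83 and 8.10 on wild-type arrays 66, 67 and 75, and 10.38, 10.77 and 8.99 on NFAT5-deficient arrays 64, 70 and 76. All NFAT5-deficient HSC arrays lay above all wild-type HSC arrays, with a gap of 0.88 between the nearest. The group means were 7.53 ± 0.76 with NFAT5 and 10.04 ± 0.94 without it (SD, n = 3), a difference of 2.51 and a 5.69-fold higher signal.

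In MPP the order was turned. Stk39 read 10.24, 10.37 and 9.31 on wild-type arrays 66, 67 and 75, and 8.95, 7.12 and 8.50 on NFAT5-deficient arrays 64, 70 and 76. The groups did not overlap, with a gap of 0.36 between the nearest arrays. The means were 9.97 ± 0.58 and 8.19 ± 0.95 (SD, n = 3), a difference of -1.78, or a 3.44-fold lower signal without NFAT5.

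The 4 group means of Stk39 therefore formed 2 pairs. NFAT5-deficient HSC and wild-type MPP were high (10.04 and 9.97) and overlapped, and NFAT5-deficient MPP and wild-type HSC were low (8.19 and 7.53) and overlapped as well. The higher pair and the lower pair did not overlap, but the narrowest distance, between NFAT5-deficient HSC array 76 and NFAT5-deficient MPP array 64, was 0.0365. Read as HSC minus MPP, Stk39 differed by -2.44 where NFAT5 was present and by 1.85 where it was absent. By sample number, HSC lay below MPP in wild-type samples 66, 67 and 75 by -3.57, -2.54 and -1.21, and above it in NFAT5-deficient samples 64, 70 and 76 by 1.43, 3.65 and 0.49.

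**Figure D1:**
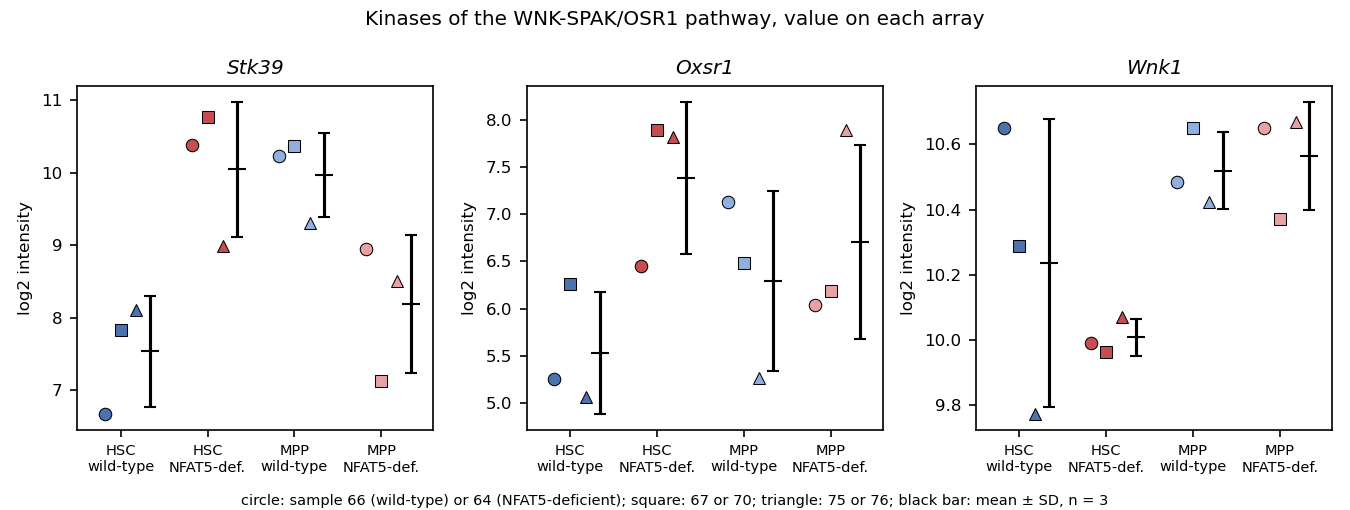
Log2 intensity of Stk39, Oxsr1 and Wnk1 on each of the 12 arrays, in 4 groups of 3, with the mean and SD of each group in black and 1 symbol per sample number. In HSC the Stk39 points span 6.67 to 8.10 for wild-type and 8.99 to 10.77 for NFAT5-deficient arrays, and the order of the genotypes is turned in MPP.

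These differences are what chose the set, and they support nothing further. In the fit over all genes, limma called 0 of 19494 genes by genotype in HSC (0%), 1 in MPP (0.00513%) and 0 for the difference between the HSC and MPP effects (0%). At an unadjusted p under 0.05 the counts were 1205 (6.18%), 1043 (5.35%) and 817 (4.19%). The genotypes did not overlap for 10.2% of all genes in HSC (3.55% higher and 6.61% lower without NFAT5) and 12.6% in MPP (3.80% higher and 8.84% lower). They were apart in both populations in opposite directions for 81 genes (0.416%), of which 37 (0.190%) were higher in HSC and lower in MPP, as Stk39 was. By size, the difference between the effects of Stk39, 4.29, ranked 3 of 19494. Its spread was also wide: the SD within groups was 0.82, against a median of 0.56 for the 1000 genes nearest in level.

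The genotypes did not overlap for Stk39 in either population, so leaving out an array could change the size of a difference but not its sign. The HSC difference of Stk39 was lowest, 2.08, when wild-type array 66 was left out and highest, 3.04, when NFAT5-deficient array 76 was left out, and the MPP difference from -2.16 without NFAT5-deficient MPP array 64 to -1.25 without array 70. Without NFAT5-deficient MPP array 76 or wild-type MPP array 75, which overlapped in Nfat5, it was -1.94 and -2.11. A list of 9 genes of mature neutrophils was higher on some arrays of both populations. In wild-type HSC their mean was 6.88 for sample 66, 7.38 for sample 67 and 5.52 for sample 75, while without NFAT5 it lay between 5.42 and 5.53. In wild-type MPP it was 6.94, 7.02 and 5.96 for the same samples. The HSC group means with and without NFAT5 were far apart for S100a8 (7.69 and 5.35), S100a9 (9.16 and 6.04) and Ngp (8.12 and 5.97). Mmp8 (5.34 and 4.35), Camp (7.21 and 6.29) and Ltf (5.97 and 5.61) were also higher with NFAT5, by less. The means were close for Lcn2 (5.18 and 5.11), Retnlg (4.97 and 4.87, both in the background range) and Mmp9 (5.73 and 5.77). The sum of the log2 values of the 9 genes restates their mean. It spanned 49.7 to 66.4 for wild-type HSC, 48.7 to 49.7 for HSC without NFAT5, and 53.6 to 63.2 and 54.1 to 59.6 in MPP. In HSC, 1 of the 9 genes with NFAT5 and 2 without it had a group mean in the background range. Without wild-type HSC arrays 66 and 67, the Stk39 difference in HSC was 1.94. That fit leaves 1 array in the wild-type HSC group, and the sign could not turn because the groups did not overlap. The part of the neutrophil genes in the Stk39 difference was not tested. The B cell, T cell, macrophage and erythroid lists, of which 3 of 4, 2 of 3, 2 of 3 and 2 of 5 genes were measured, had array means of 5.98 to 6.39, 5.31 to 5.93, 5.57 to 6.16 and 6.61 to 7.41.

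NFAT5 binds a DNA element with the core TGGAAA, so the promoters were searched for it. RefSeq promoter windows (GRCm38.p6, 250 bases before to 50 after a transcript start) were at hand for 8 of the 9 genes, with 10 windows, and none is given for Slc12a2. The core, searched on both strands, was found in 1 of the 10 windows, that of Stk39, where it starts 227 bases before the transcript start. Over all 32851 windows 21.4% hold the core. The match in Stk39 also meets the longer consensus of the NFAT5 element (TonE), of which the core is a part and which 4.96% of windows hold. The upstream 250 bases of Stk39 are shown because that gene carries the pattern, and those of its closest relative Oxsr1 for comparison. They lie on the minus strand, at chr2:68471982-68472231 and chr9:119322428-119322677, and capitals mark the core.
Stk39: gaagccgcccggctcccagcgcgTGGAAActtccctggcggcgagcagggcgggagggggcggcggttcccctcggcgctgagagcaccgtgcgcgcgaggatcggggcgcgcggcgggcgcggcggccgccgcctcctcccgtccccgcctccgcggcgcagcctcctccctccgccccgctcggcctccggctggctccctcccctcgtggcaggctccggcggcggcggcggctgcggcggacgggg
Oxsr1: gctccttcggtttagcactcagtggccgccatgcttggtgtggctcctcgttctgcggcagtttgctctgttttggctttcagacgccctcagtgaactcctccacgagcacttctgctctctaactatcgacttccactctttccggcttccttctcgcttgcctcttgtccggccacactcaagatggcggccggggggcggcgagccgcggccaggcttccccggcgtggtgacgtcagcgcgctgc
A match of letters is not a bound site, and these data hold no binding measurement. All 10 windows were richer in G and C than the median window (62.3% to 80.0%, against 52.7%). The Stk39 window was the richest of them, and 0.934% of all windows exceeded it.

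Oxsr1, the other kinase that WNK proteins activate, followed Stk39 in HSC but not in MPP. In HSC it read 5.26, 6.26 and 5.06 on wild-type arrays 66, 67 and 75, and 6.45, 7.88 and 7.81 on NFAT5-deficient arrays 64, 70 and 76. The groups were apart by 0.19, with means of 5.53 ± 0.64 and 7.38 ± 0.81 (SD, n = 3) and a difference of 1.85, or 3.61-fold. Wild-type HSC array 75 fell into the background range, and the size of that difference may not be resolved. In MPP the means were 6.29 ± 0.95 with NFAT5 and 6.71 ± 1.02 without it (SD, n = 3), and the groups overlapped. That difference, 0.41, became -0.18 without NFAT5-deficient MPP array 76, which read 7.88 against 6.05 and 6.19 on arrays 64 and 70, and -0.10 without wild-type MPP array 75. The SD of Oxsr1 within groups, 0.87, was far above the median of 0.23 for genes of like level, and 8.1% of those had a larger SD.

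Wnk1, whose product acts upstream of both kinases, had a narrow range of 9.77 to 10.67 over the 12 arrays. In HSC the means were 10.24 ± 0.44 with NFAT5 and 10.01 ± 0.06 without it (SD, n = 3), and the groups overlapped. The difference of -0.23 was -0.02 without wild-type HSC array 66 and -0.46 without array 75. In MPP the genotypes differed by 0.05, with 10.52 ± 0.12 and 10.56 ± 0.17 (SD, n = 3).

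Among the cotransporters, Slc12a2 was the gene whose NFAT5-deficient HSC stood apart from their MPP counterparts. In HSC it read 10.15, 8.92 and 8.74 on wild-type arrays 66, 67 and 75, and 10.08, 10.11 and 10.41 on NFAT5-deficient arrays 64, 70 and 76. Wild-type HSC array 66 lay among the NFAT5-deficient arrays, so the genotypes overlapped there. The means were 9.27 ± 0.76 and 10.20 ± 0.18 (SD, n = 3), and the difference of 0.93 became 1.37 without wild-type array 66. In MPP the means were 9.03 ± 0.51 and 8.99 ± 0.29 (SD, n = 3). Sample 66 was the highest wild-type sample in MPP as well, at 9.62 against 8.74 and 8.73 for samples 67 and 75. NFAT5-deficient HSC lay above NFAT5-deficient MPP on all arrays, by 1.21 in the mean, with a gap of 0.78 between the nearest.

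Slc12a4, which encodes KCC1, read near the background range on most arrays. The means were 5.04 ± 0.14 and 4.99 ± 0.25 in HSC with and without NFAT5, and 5.78 ± 0.82 and 4.80 ± 0.22 in MPP (SD, n = 3). In MPP it read 5.72, 6.63 and 5.003 on wild-type arrays 66, 67 and 75, and 4.92, 4.54 and 4.94 on NFAT5-deficient arrays 64, 70 and 76. The groups did not overlap in MPP, by a gap of 0.07. The difference there, -0.98, was -0.56 without wild-type MPP array 67, and its size is not resolved because the lower group was in the background range.

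For Slc12a7, which encodes KCC4, the genotypes overlapped in both populations. The means were 6.34 ± 0.76 and 5.90 ± 0.45 in HSC with and without NFAT5 and 6.44 ± 0.71 and 6.25 ± 0.52 in MPP (SD, n = 3). The HSC difference of -0.45 was -0.09 without wild-type HSC array 75 and -0.85 without array 66. In MPP the difference of -0.19 became 0.22 without wild-type MPP array 66.

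**Figure D2:**
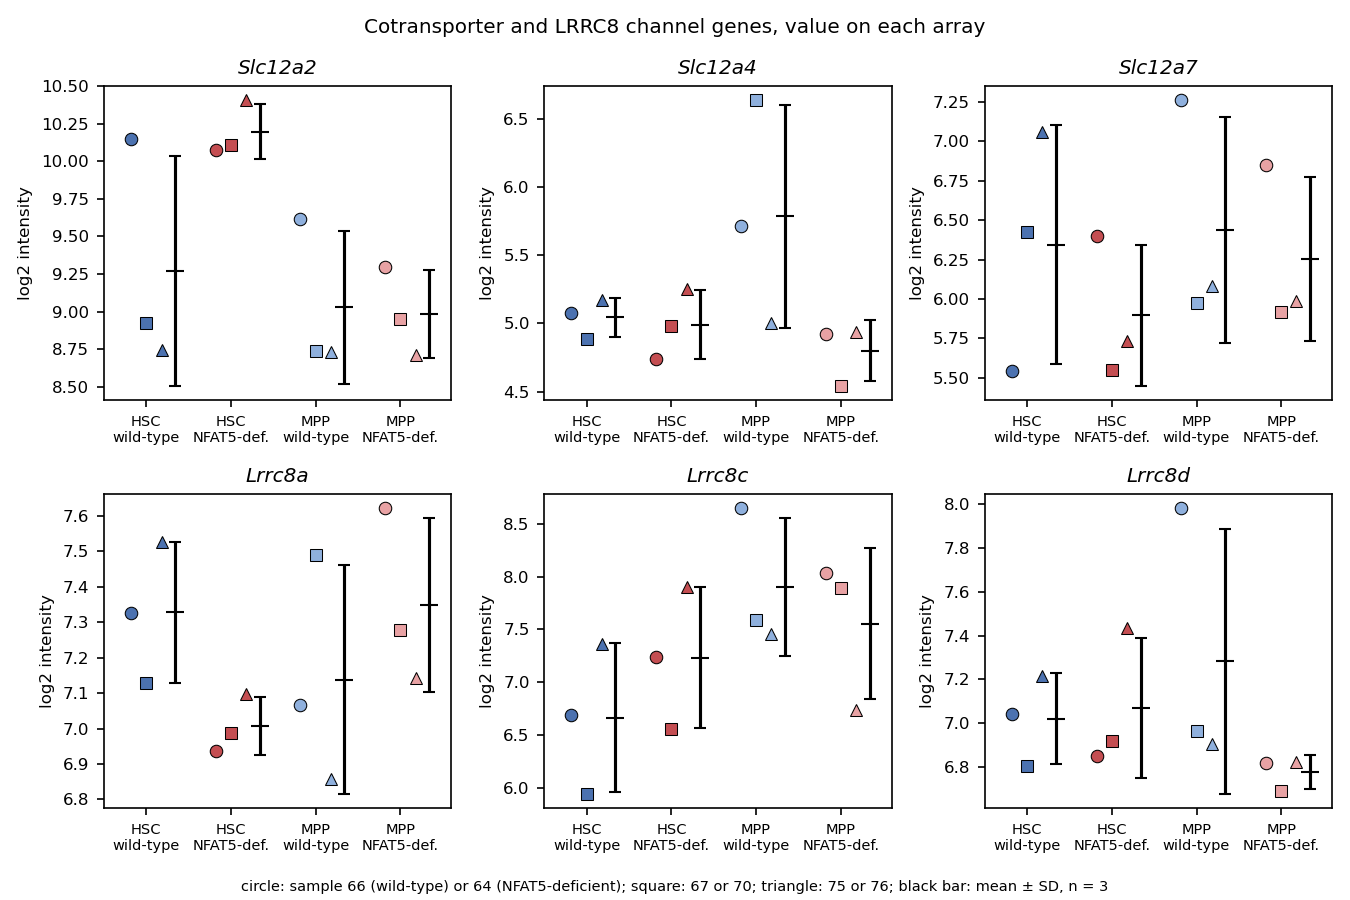
Log2 intensity of the 3 cotransporter and 3 LRRC8 genes on each of the 12 arrays, in 4 groups of 3, with the mean and SD of each group in black and 1 symbol per sample number. The vertical axes differ between panels. The 3 NFAT5-deficient HSC arrays of Slc12a2 lie at 10.08 to 10.41 beside wild-type array 66 at 10.15, and the highest Slc12a4 values, 5.72 and 6.63, come from wild-type MPP arrays 66 and 67.

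The LRRC8 genes differed less by genotype than Stk39 or Oxsr1 did in HSC. Lrrc8a stayed between 6.86 and 7.62 on all arrays. In HSC it read 7.33, 7.13 and 7.52 on wild-type arrays 66, 67 and 75, and 6.94, 6.99 and 7.10 on NFAT5-deficient arrays 64, 70 and 76. The groups were apart there by 0.03, with means of 7.33 ± 0.20 and 7.01 ± 0.08 (SD, n = 3) and a difference of -0.32. In MPP the means were 7.14 ± 0.32 and 7.35 ± 0.25 (SD, n = 3), the groups overlapped, and the difference of 0.21 was 0.07 without wild-type MPP array 75 and 0.39 without array 67.

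Lrrc8c, a partner subunit, overlapped between genotypes in both populations. Its means were 6.67 ± 0.71 and 7.23 ± 0.67 in HSC with and without NFAT5 and 7.90 ± 0.65 and 7.55 ± 0.71 in MPP (SD, n = 3). The HSC difference, 0.57, was 0.21 without wild-type HSC array 67 and 0.92 without array 75. In MPP the difference was -0.34, and it became 0.06 without NFAT5-deficient MPP array 76 and 0.03 without wild-type MPP array 66. In wild-type cells HSC lay below MPP on all arrays, by -1.23 in the mean and with a gap of 0.09.

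Lrrc8d, the subunit linked to the passage of organic osmolytes, had means of 7.02 ± 0.21 and 7.07 ± 0.32 in HSC with and without NFAT5 and 7.28 ± 0.61 and 6.78 ± 0.08 in MPP (SD, n = 3). In MPP it read 7.98, 6.96 and 6.90 on wild-type arrays 66, 67 and 75, and 6.82, 6.69 and 6.82 on NFAT5-deficient arrays 64, 70 and 76. The groups did not overlap, by a gap of 0.08, and the difference of -0.51 was -0.16 without wild-type MPP array 66.

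Over the 9 genes, 5 read higher and 4 read lower in HSC without NFAT5, with a median difference of 0.05 against -0.05 over all genes. In MPP 3 read higher and 6 lower, with a median of -0.19 against -0.07. The genotypes did not overlap for 3 of the 9 in HSC (Stk39 and Oxsr1 higher, Lrrc8a lower), against 10.2% of all genes, and for 3 in MPP (Stk39, Slc12a4 and Lrrc8d, all lower), against 12.6%. Nothing is read from these counts, because the choice of the set used the same values.

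**Figure D3:**
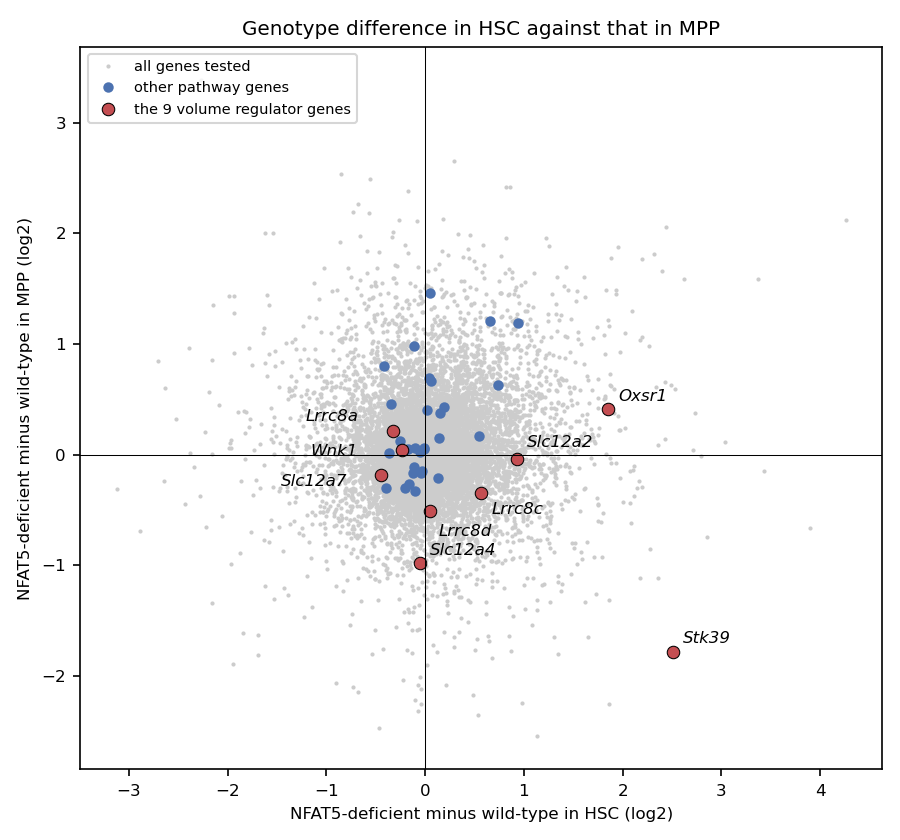
NFAT5-deficient minus wild-type log2 difference in HSC (horizontal) and in MPP (vertical), 1 point per gene: 19494 genes in grey, the 9 volume regulator genes in red and 30 other pathway genes in blue. Stk39 lies at 2.51 and -1.78, at the lower right edge of the cloud, while Wnk1 and Slc12a7 lie near its centre.

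The comparison of HSC with MPP over both genotypes asked whether the 9 genes marked either population, and limma called 0 of them. Over all genes it called 119 (0.610%), 58 higher (0.298%) and 61 lower (0.313%) in HSC. At an unadjusted p under 0.05 there were 2 of the 9, against 2370 of all genes (12.2%). These were Slc12a2 and Wnk1. For Slc12a2, whose cotransporter brings salt into shrunken cells, HSC read higher by 0.73 (95% confidence interval 0.13 to 1.32, limma adjusted p = 0.323). For Wnk1 the HSC value was lower, with a difference of -0.42 (interval -0.74 to -0.09, limma adjusted p = 0.300). Without NFAT5 both were apart between the populations, Slc12a2 by 1.21 and Wnk1 by -0.56, and in wild-type cells both overlapped, at 0.24 and -0.28. The wild-type value of Slc12a2 was -0.20 without HSC array 66 and 0.53 without MPP array 66, and that of Wnk1 was -0.49 when HSC array 66 was left out and -0.05 when HSC array 75 was. HSC and MPP arrays did not overlap for 5 of the 9 genes without NFAT5 (Stk39, Slc12a2 and Lrrc8d higher, Wnk1 and Lrrc8a lower), against 16.9% of all genes (11.5% higher, 5.39% lower). In wild-type cells they did not overlap for Stk39 and Lrrc8c, both lower, against 12.3% of all genes (7.54% higher, 4.74% lower). Nothing is read from these counts within a genotype, because they hold the same differences that chose the set. Over both genotypes 0 of the 9 were apart, against 1.33% of all genes.

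Of the rest, Lrrc8c had the largest difference, -0.78 (interval -1.57 to 0.02, limma adjusted p = 0.422). Stk39 differed by -0.29 (interval -1.24 to 0.66, limma adjusted p = 0.805), the mean of -2.44 in wild-type cells and 1.85 without NFAT5. Oxsr1 was at -0.04 (interval -1.02 to 0.93), which is wide on either side of 0. The intervals were -0.78 to 0.23 for Slc12a4, -0.93 to 0.48 for Slc12a7, -0.41 to 0.26 for Lrrc8a and -0.43 to 0.46 for Lrrc8d. The median over the 9 genes was -0.22, with 2 values higher and 7 lower in HSC, against 0.06 over all genes. The 2 higher values include Lrrc8d at 0.01, which turned to -0.01 under quantile normalization and -0.04 with arrays centred on their medians. Of the 7 lower values, those of Oxsr1, Lrrc8a and Slc12a7 also turned sign when some arrays were left out, so neither count is firm.

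Other genes of the pathway were taken from 4 lists, with 30 of 34 genes measured. Genes of these lists without a value are not analysed here. Over both genotypes 1 of the 30 was called between HSC and MPP, Atp1b1, lower in HSC, where 0.610% of all genes were called. Atp1b1 encodes a beta subunit of the sodium-potassium pump, which keeps up the gradients that the cotransporters use. In HSC it read 5.72, 5.45 and 5.19 on wild-type arrays 66, 67 and 75 and 5.31, 5.04 and 5.67 on NFAT5-deficient arrays 64, 70 and 76. In MPP the values were 6.42, 7.54 and 7.16, and 8.38, 8.70 and 6.98. All HSC arrays lay below all MPP arrays, as they did for 0.575% of all genes. HSC and MPP differed by -2.13 (SE 0.30, limma adjusted p = 0.00887), and the HSC values lie close to the background range, which leaves the size uncertain. With the sample number as a replicate block, Atp1b1 was not called (limma adjusted p = 0.0993). The call was lost without wild-type HSC array 66 and NFAT5-deficient HSC array 70 (limma adjusted p = 0.0524), and without wild-type HSC arrays 66 and 67 (limma adjusted p = 0.05002).

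Of the 9 measured WNK-SPAK regulators, 0 passed between HSC and MPP and 2 had an unadjusted p under 0.05. These were Klhl2, a substrate adaptor for degradation of WNK kinases, at -0.78 and Cab39, which encodes the SPAK and OSR1 cofactor MO25-alpha, at -0.73 (limma adjusted p = 0.344 and 0.370). The other cotransporters (5 of 6 measured) and the other LRRC8 genes (2 of 2) had 0 calls and 0 unadjusted. The smallest p belonged to Slc12a3 (0.27) and Slc12a5 (0.22), and the LRRC8 values were 0.18 for Lrrc8e and -0.25 for Lrrc8b. The mean level of Slc12a5, 5.05, was in the background range, so the size of its difference is not resolved. Among 14 measured volume and ion transport genes 5 had an unadjusted p under 0.05, where 12.2% of all genes did. Beside Atp1b1 these were Kcnk5 (1.37) and Aqp1 (0.51), higher in HSC, and Pacc1 (-0.68) and Kcnn4 (-0.63), lower. Apart from Atp1b1 their limma adjusted p ran from 0.240 to 0.322.

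**Figure D4:**
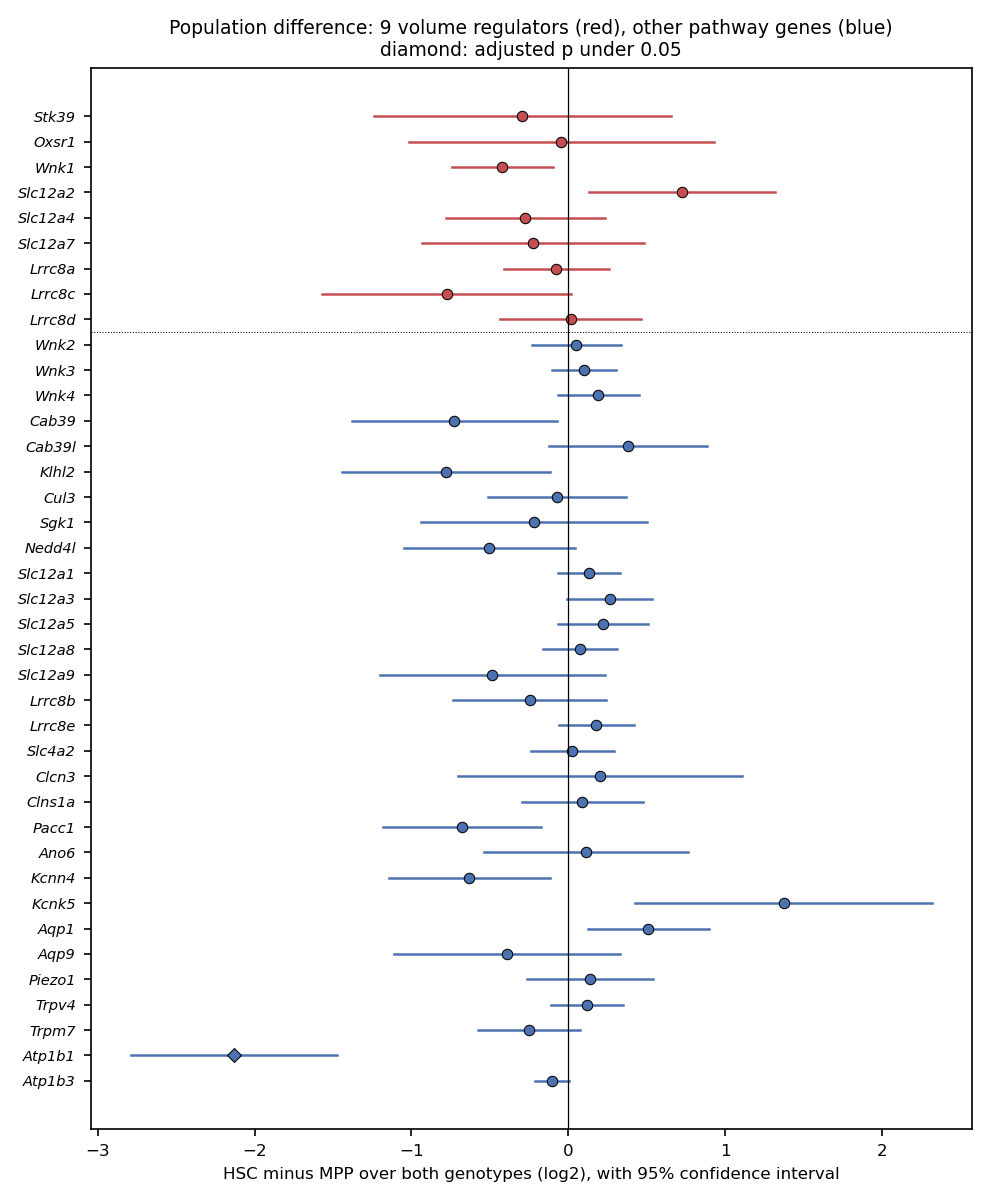
HSC minus MPP log2 difference over both genotypes for each gene (horizontal), with its 95% confidence interval, for the 9 volume regulators in red and 30 other pathway genes in blue. The diamond marks Atp1b1 at -2.13, which was called, and the intervals of Wnk1 and Slc12a2 leave out 0 although neither passed adjustment.

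By genotype, limma called 0 of the 30 other pathway genes in HSC, 0 in MPP and 0 for the difference between the effects. At an unadjusted p under 0.05 there were 1, 4 and 1, against 6.18%, 5.35% and 4.19% of all genes. The gene behind the last was Cab39l, which encodes MO25-beta, a relative of Cab39. In MPP it read 6.79, 7.47 and 7.86 on wild-type arrays 66, 67 and 75, and 8.44, 8.83 and 9.21 on NFAT5-deficient arrays 64, 70 and 76. The groups did not overlap, and the difference of 1.46 had a limma adjusted p of 0.699. In HSC the means were 8.46 ± 0.33 and 8.50 ± 0.17 (SD, n = 3), so the direction in MPP was opposite to that of Stk39.

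Among the other cotransporters in MPP, Slc12a1 had -0.33 and Slc12a3 -0.16, and among the ion transport genes Ano6, a lipid scramblase and ion channel gene, had 1.21 and Atp1b1 0.98 (limma adjusted p from 0.896 to 0.901). The HSC values with the smallest p were -0.39 for Trpv4, an osmosensitive cation channel gene, and 0.94 for Clcn3, a chloride transporter gene. Their limma adjusted p were 0.779 and 0.871. Trpv4 had means of 5.56 and 5.17 in HSC with and without NFAT5, close to the background range, which leaves the size uncertain. In HSC the LRRC8 gene Lrrc8b, which lies next to Lrrc8c in the genome, read higher by 0.55 without NFAT5 (limma adjusted p = 0.858), and Lrrc8e differed by -0.20. Nedd4l at -0.37 and Wnk2 at -0.18 were the regulators with the smallest p in HSC, and Slc12a5 at 0.14 and Slc12a1 at -0.10 the cotransporters. Slc12a5 read close to the background range in HSC too. Cul3, the scaffold of the ligase that Klhl2 serves, had 0.43 in MPP, and Lrrc8e and Lrrc8b had -0.31 and 0.17 there.

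Across the 12 arrays the 9 genes did not move as a block. Of 36 pairs, 1 had a Pearson r above 0.5 and 0 had r below -0.5, with a median of 0.17. The highest was Lrrc8c with Lrrc8d (r = 0.55, Spearman rho = 0.27), whose genes lie near each other. Around the group means r was 0.70. Stk39 correlated with Oxsr1 at r = 0.47 (rho = 0.57), and 4.52% of all genes had a higher r with Stk39. The lowest was Oxsr1 with Lrrc8a (r = -0.36, rho = -0.41). These are descriptions over arrays that share groups and normalization.

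**Figure D5:**
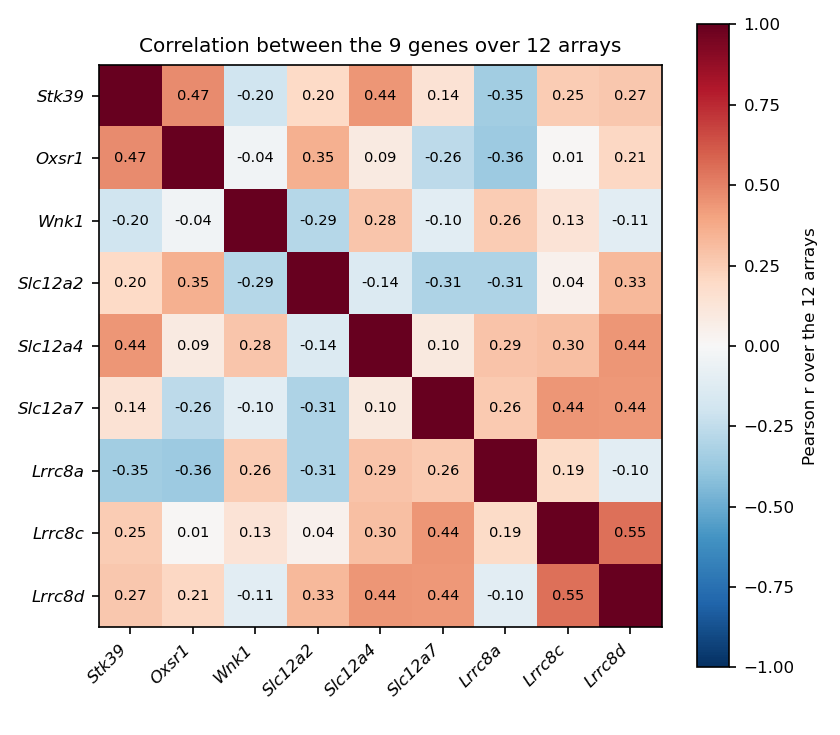
Pearson r between each pair of the 9 genes over the 12 arrays, red for positive and blue for negative values. Lrrc8c with Lrrc8d, at 0.55, is the highest pair, and Stk39 with Oxsr1 stands at 0.47.

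Genes with the pattern most like Stk39 over the 12 arrays were sought among 15333 genes with a mean above the background range. Gene models (names with Gm, Rik or LOC) and olfactory and vomeronasal receptor genes were left out. The highest r belonged to Atxn7 (0.91), a subunit gene of the SAGA coactivator complex, Endog (0.88), which encodes mitochondrial endonuclease G, Ehd4 (0.85), an endocytic traffic gene, Stxbp2 (0.83), a secretory granule fusion gene, and Cdca7l (0.82). Ehd4 had the differences nearest in size, 2.18 in HSC and -1.12 in MPP, and Atxn7 had 0.82 and -0.59. The most opposite patterns were those of Ccnb1ip1 (r = -0.85), Crabp1 (-0.84), Rarg (-0.84), Grpel1 (-0.84) and Id4 (-0.83). Of all genes compared 9 had r above 0.8 and 12 had r below -0.8. With 12 arrays and this many genes, high values of r at both ends carry little weight.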

How the data were processed

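The authors deposited 1 table of log2 intensities for 22142 probe sets and 12 arrays, made from 300 pg of RNA per sample. The log2 scale was read from the values, 2.51 to 13.28. Per the submitters' processing notes, RMA and limma were used, with no version or role given, and the sources used here do not name the genome build. GEO's platform annotation named 1 symbol for 19527 probe sets, several for 0 and none for 2615. For 33 genes with several probe sets the brightest stood for the gene, leaving 19494 genes.

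Group means were fitted to all 12 arrays with limma 3.58.1 (R 4.3.3, eBayes with trend) and adjusted with the Benjamini-Hochberg method over all genes, with calls at an adjusted p under 0.05. The fit was tested on simulated data. The 9 genes, the other lists and the tests were chosen with earlier results of these data known. Named beside the 9 genes were called genes of each list, otherwise the 2 with the smallest p, and the 5 genes most and least correlated with Stk39. Volume and ion transport genes with an unadjusted p under 0.05 between HSC and MPP were named as well. Scanner files and dates were not used here, so no batch could be tested. The number of arrays limits the precision. Alternatives were a filter on dim genes, other variance priors, normalization, array weights, probe set means, the sample number as a block, another threshold and leaving out each array. Fits without 2 pairs of HSC arrays were added after seeing the data. Drawings used Python 3.11.15 and matplotlib 3.10.9.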

Additional observations from a re-analysis of the deposited data

Results flagged for a closer look

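Stk39 stood out because its genotype difference had opposite directions in the populations, with every NFAT5-deficient array above every wild-type array in HSC and below in MPP. The difference between the effects was 4.29 on the log2 scale. That difference was not tested, because it chose the set of genes, and 81 of 19494 genes (0.416%) were apart in opposite directions by the same criterion.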

How the results depend on the processing

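The 0 calls among the 9 genes between HSC and MPP held under all 23 alternatives run, and so did the 0 calls by genotype among the other pathway genes (22 alternatives in HSC and 22 in MPP, 23 for the difference between the effects). Atp1b1 was the 1 called pathway gene; the count was 0 with the sample number as a replicate block (limma adjusted p = 0.0993), without HSC arrays wild-type 66 and NFAT5-deficient 70, and without wild-type HSC arrays 66 and 67 (0.05002). Deviations of HSC and MPP arrays with the same number correlated at -0.0137 to 0.0641. Of 6 HSC arrays, 2 were most like the MPP array of their own number. With so few arrays these values cannot show whether HSC and MPP of the same number were paired. Over 18 alternatives each, the genotype differences of Stk39 ran from 1.71 to 3.04 in HSC and from -2.16 to -1.25 in MPP. Leaving out arrays could not turn their signs, because the groups did not overlap. Leaving out arrays of the other population could not change the value at all. Between HSC and MPP, signs of uncalled values turned. Leaving out single arrays, Oxsr1 ran from -0.30 to 0.25, Lrrc8a from -0.15 to 0.0119 and Lrrc8d from -0.0802 to 0.19. Lrrc8d turned to -0.0149 under quantile normalization and -0.0366 with centred arrays. Slc12a7 turned to 0.0607 without wild-type 66 and NFAT5-deficient 70 and to 0.13 without wild-type 66 and 67, where Lrrc8a turned to 0.0230. The cause was not tested. The 119 genes called over all genes became 52 with the block, 218 at a threshold of 0.1, 79 without wild-type 66 and NFAT5-deficient 70, and 71 to 112 without single arrays. By genotype over all genes, the counts ran from 0 to 30 in HSC, 0 to 7 in MPP and 0 to 9 for the difference between the effects, with 30 and 9 from the fit without wild-type HSC arrays 66 and 67, which leaves 1 array in that group, assumed to vary like the others.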
